A study of Mus musculus with 6 samples.

Results

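Amino acid transporters are described here in the kidneys of mice fed an adenine-enriched diet and mice fed a standard diet. The members are the rows of the deposited expression table whose gene name belongs to the solute carrier families Slc1, Slc3, Slc6, Slc7, Slc36, Slc38 or Slc43, which carry amino acids and neurotransmitters. The name rule took in 65 of 40993 genes, of which 61 are carriers and 4 are opposite-strand genes that only share the name. A mean level of 0.5 FPKM or more across all 6 libraries (fragment counts scaled for transcript length and library depth) was reached by 43 carriers and by 1 opposite-strand gene. Both groups were C57BL/6 mice aged 2 months, with no other genotype or agent in the labels. There were 3 whole-kidney libraries on the standard diet (standard 1 to 3) and 3 on the adenine-enriched diet (adenine 1 to 3). The labels give neither the adenine dose nor the length of feeding, and nothing in them states that each library is from its own mouse; the p-values reflect the spread between libraries, which may be technical. Each ± is an SD over 3 libraries unless given as a standard error (SE).

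The kidney filters free amino acids in the glomerulus, and the proximal tubule takes nearly all of them back. Carriers on the luminal membrane bring them into the cell together with sodium, protons or in exchange, and carriers on the basolateral membrane pass them on to the blood. Several carriers of the Slc7 family work only as a pair with a heavy chain of the Slc3 family. Other members feed cells that grow or are stressed, sit on lysosomes, or move taurine, betaine, creatine and neurotransmitters. Adenine feeding injures the rodent kidney, because an oxidation product of adenine precipitates in the tubules.

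On the adenine-enriched diet 5 of 9 luminal carriers of the proximal tubule fell, and 5 of 8 carriers that supply growing or stressed cells rose. The members and lists were chosen with earlier results of these data known, so the counts by role are a description and no test of the roles. Of 43 carriers tested, 13 rose and 5 fell (limma with Benjamini-Hochberg adjustment over all 15431 genes tested, adjusted p under 0.05), and all 5 falls were among the 9 luminal members. Of all genes tested 36.5% were called, 29.7% higher and 6.84% lower, so the share of carriers that rose was close to that of all genes. The median log2 change was 0.20 for the carriers and 0.25 for all genes. That shift of 0.25 was taken out by median-of-ratios scaling, which sets the typical gene equal in all libraries. After that scaling 4 carriers rose and 7 fell, against 16.8% and 15.2% of all genes (32% in either direction), and the carriers' median was -0.08. With the replicate number as a block, 13 carriers rose and 8 fell (31.3% and 7.34% of all genes, 38.6% in either direction). Slc3a1, Slc6a19, Slc1a5 and Slc7a2 kept their call in each of the 16 alternative settings; the other 14 calls ended in at least 1. Leaving out standard 1, 2 or 3 left 2, 6 or 4 rises (15.5%, 16.3% or 15.2% of all genes tested). Leaving out adenine 1 or 2 left 7 or 2 (19.6% or 11.9% of all genes). For the falls, 3 or 2 were left on omission of standard 1 or 2 (2.61% or 2.27% of all genes). On omission of adenine 2 or 3, 2 or 8 falls were left (1.43% or 10.4% of all genes).

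**Figure D1:**
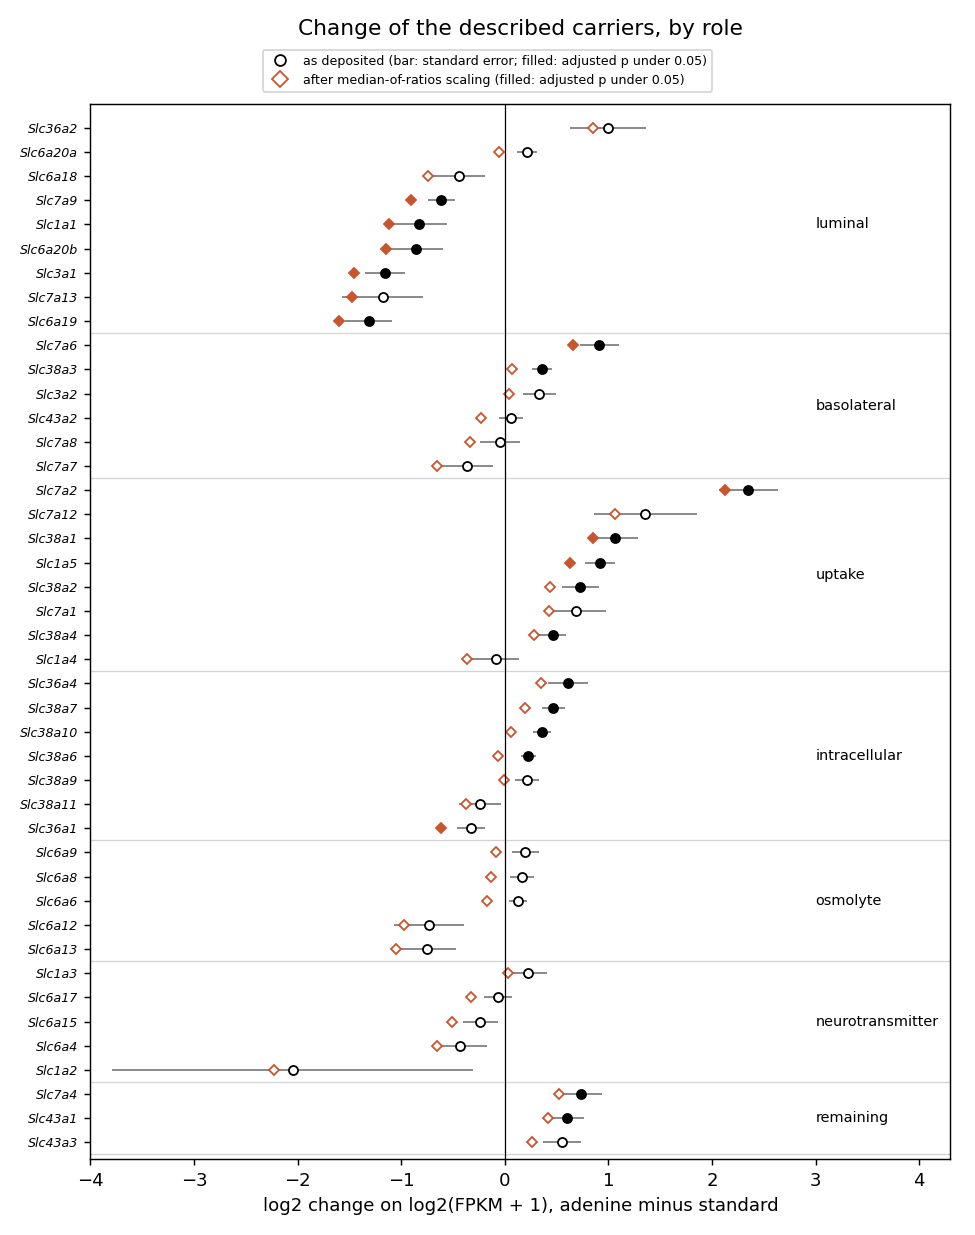
Log2 change of each of the 43 described carriers (horizontal axis, adenine minus standard on the log2(FPKM + 1) scale), grouped by role; circles are the fit as deposited with the standard error, diamonds the value after median-of-ratios scaling, and filled symbols have adjusted p under 0.05. All filled circles left of 0 are luminal carriers, and the filled diamonds right of 0 are Slc7a6, Slc7a2, Slc38a1 and Slc1a5.

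The steps between the smallest FPKM values put the depth at roughly 17.3 to 23.5 M fragments (M, mega) per library, at which 3 fragments are at most 0.0966 FPKM for a 2 kb transcript. Markers of the proximal tubule summed to 2218 to 2919 FPKM in the standard and 889.6 to 1794 FPKM in the adenine libraries, and 7 of 10 fell. All 7 macrophage markers measured and all 6 fibroblast and myofibroblast markers rose, with macrophage sums of 97.8 to 123.4 against 738 to 1702 FPKM and fibroblast sums of 119.9 to 158 against 583 to 1109 FPKM. Of 6 T and NK cell markers 4 rose (sums of 3.47 to 4.51 against 10.1 to 48.1 FPKM), and of 4 B and plasma cell markers none was called by limma, nor under an unadjusted p of 0.05 (sums of 1.30 to 7.37 against 4.68 to 80.7 FPKM). The shares of all genes tested were 29.7% higher and 6.84% lower (36.5% in either direction). After median-of-ratios scaling 7 macrophage, 5 fibroblast and myofibroblast and 1 of the T and NK cell markers rose, and 7 proximal tubule markers fell. With that scaling 16.8% of all genes rose and 15.2% fell. None of the markers of these cell types was at 0 in every library. In every adenine library the proximal tubule sum was lower and the macrophage sum higher than in every standard library, and adenine 1 was the lowest of the former and the highest of the latter. The part of these cell types in the results on the carriers was not tested; in whole-kidney RNA, fewer cells of a type and less RNA per cell cannot be told apart.

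Among the 9 luminal carriers 5 fell, none rose and 4 were not called, where 6.84% of all genes tested fell and 29.7% rose. For 6 of the 9 every adenine library was below every standard library, against 11.8% of all genes tested. The median log2 change of the 9 carriers was -0.82. With median-of-ratios scaling 6 fell, against 15.2% of all genes, and the median was -1.12. Slc3a1 encodes rBAT, the heavy chain that brings the cystine and dibasic amino acid carrier to the luminal membrane, and its loss causes cystinuria. Slc3a1 (ENSMUSG00000024131, chromosome 17, 85028347 to 85064243, GRCm38) was at 267, 287 and 323 FPKM on the standard diet (standard 1 to 3) and 99.5, 138 and 161 FPKM in adenine 1 to 3. Every adenine library was below every standard library, and the means of 292 ± 28.2 and 132.8 ± 31.2 FPKM differ 2.20-fold (log2 change -1.16 ± 0.19 SE, limma adjusted p = 0.00824). The gene overlaps Prepl on the other strand by 767 bp, a gene that also fell (61.1 to 68.8 against 32.9 to 45.5 FPKM, limma adjusted p = 0.0108); no source used here says that strand was used in counting, so reads in that stretch cannot be assigned. The light chain of rBAT, Slc7a9 (chromosome 7, 35449037 to 35466036), was at 41.2, 46.5 and 55.4 FPKM in the standard and 27.8, 32.5 and 31.8 FPKM in the adenine libraries. It fell 1.55-fold, again without overlap (limma adjusted p = 0.0153). The call of Slc7a9 ended without standard 2 (0.0506) and without adenine 2 (0.0501).

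The start of Slc3a1 is shown because it holds the only match among the carriers to CAAAGTNCA, a binding sequence of the tubular factor HNF4. The 250 bases before the start (RefSeq, GRCm38.p6, chr17:85028097-85028346, plus strand) are printed 5′ to 3′ with the match in capitals; it ends 31 bases from the start. Searched on both strands, the motif is in 392 of 32851 mouse promoter windows of this length (1.19%) and in 1 of 65 windows of 44 matched carriers.
Slc3a1: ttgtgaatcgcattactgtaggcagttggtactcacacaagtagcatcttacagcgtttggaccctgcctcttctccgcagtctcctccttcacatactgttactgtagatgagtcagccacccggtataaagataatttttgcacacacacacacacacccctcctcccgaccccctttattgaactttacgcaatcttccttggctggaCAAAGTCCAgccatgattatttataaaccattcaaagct

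Slc7a13, the second light chain known to pair with rBAT, carries aspartate, glutamate and cystine in the last segment of the proximal tubule, and in mice its transcript is known to be more abundant in males. It was the most abundant member, at 1004, 1004 and 1154 FPKM in standard 1 to 3 and 262, 472 and 809 FPKM in adenine 1 to 3. On the standard diet it made up 40.6 ± 1.10% of the summed FPKM of 60 carriers (all except Slc1a2, which has 1 extreme value), against 25.8 ± 9.18% on the adenine-enriched diet. The groups did not overlap, but the adenine libraries spread 3.09-fold and the 2.05-fold difference missed the threshold (limma adjusted p = 0.0554). It passed under median-of-ratios scaling (0.0459), with a robust variance prior (0.0461), with the block (0.0399) and without adenine 3 (0.00913). The Y-linked genes measured were at 6.8 FPKM or more in every library and Xist at no more than 0.0529 FPKM.

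Slc6a19 encodes B0AT1, the main luminal carrier of neutral amino acids, whose loss causes Hartnup disorder. Slc6a19 (chromosome 13, 73679745 to 73704865) was at 35.5, 41.6 and 53.1 FPKM for standard 1, 2 and 3, against 13.3, 15.2 and 22.7 FPKM in adenine 1 to 3. The groups did not overlap and the difference was 2.54-fold (log2 change -1.31 ± 0.23 SE, limma adjusted p = 0.00923). Slc6a18, a luminal glycine and alanine carrier next to it, was at 214 to 270 FPKM in the standard libraries and at 119, 180 and 235 FPKM in the adenine libraries. These groups overlapped (limma adjusted p = 0.195, 0.0465 without adenine 3 and 0.0385 with the block and median-of-ratios scaling together).

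Slc6a20b, listed here among the luminal carriers, fell from 76.0, 95.4 and 102.7 to 34.6, 51.3 and 69.1 FPKM, or 1.77-fold (limma adjusted p = 0.0401). Slc1a1, the luminal glutamate and aspartate carrier, fell from 56.5, 62.5 and 62.6 to 21.6, 38 and 46.4 FPKM, a 1.71-fold difference (limma adjusted p = 0.0485). For both genes all adenine libraries were below all standard libraries. The Slc1a1 region overlaps 4430402I18Rik on the other strand over 20919 bp, a gene at 33.7 to 41.2 and 18.8 to 35.8 FPKM. Omission of 1 library ended the call of Slc6a20b (standard 1, 2 or 3: 0.0673, 0.11 or 0.12, adenine 1 or 2: 0.0678 or 0.103) and of Slc1a1 (standard 1, 2 or 3: 0.102, 0.124 or 0.125, adenine 2: 0.0969). It also ended with no filter on low values for both (0.066 and 0.0781), and for Slc1a1 with quantile normalization (0.0634) and with no variance trend (0.0564).

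Slc6a20a and Slc36a2, named here after their values were seen, were not lower. Slc6a20a, the neighbour of Slc6a20b, was at 9.38, 8.76 and 9.33 FPKM in the standard and 11.4, 10.1 and 10.9 FPKM in the adenine libraries (limma adjusted p = 0.12; the log2 change of 0.22 became -0.06 after median-of-ratios scaling). Slc36a2, a proton-coupled glycine and proline carrier, was low, at 0.772, 1.10 and 0.0277 against 2.80, 2.96 and 1.00 FPKM (limma adjusted p = 0.0738, 0.0117 with the block and 0.0246 without adenine 3). It was lowest in library 3 of each group, and so was the sum of 3 adipocyte markers, none of them called. That sum was 4.73, 7.47 and 0.099 FPKM in standard 1 to 3 and 5.18, 11.7 and 0.17 FPKM in adenine 1 to 3. The part of fat cells in the values of Slc36a2 was not tested.

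**Figure D2:**
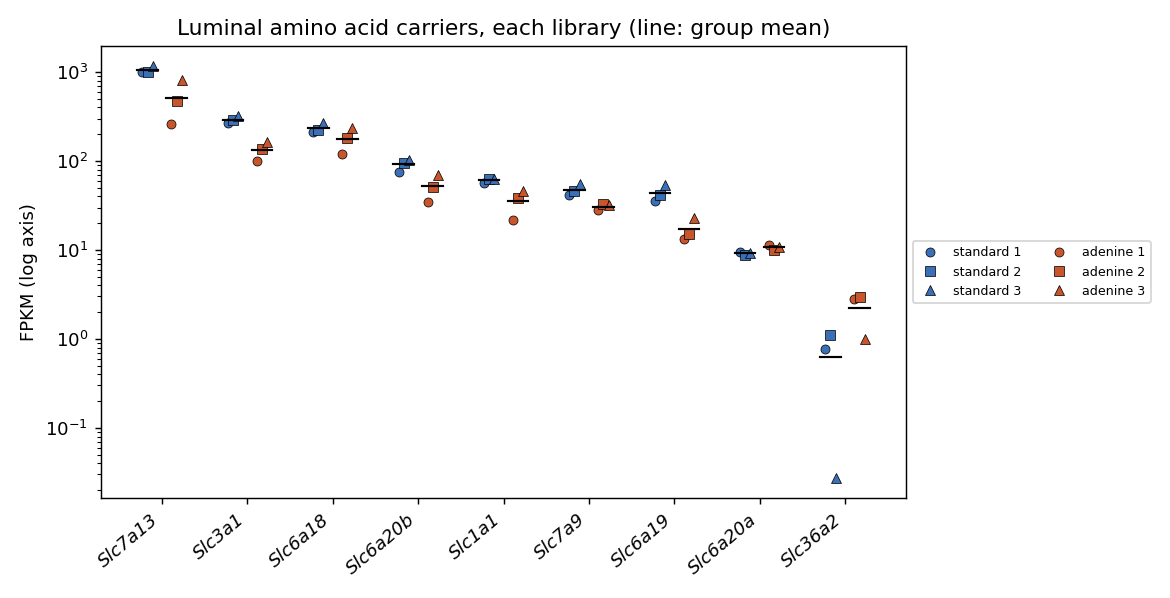
FPKM on a log axis of the 9 luminal carriers in each library; blue symbols are standard, orange symbols adenine, shapes mark library numbers and lines the group means. Adenine 1 (orange circle) is the lowest library for 7 of the 9 carriers, against 2419 of all 15431 genes tested and 9 of the 10 proximal tubule markers. Slc6a20a and Slc36a2 are the 2 carriers whose adenine mean is higher.

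The luminal carriers were set beside the markers of the proximal tubule. Their mean log2(FPKM + 1) level over 9 carriers was 5.86 to 6.03 in the standard libraries and 5.06, 5.45 and 5.64 in adenine 1 to 3. The 10 proximal tubule markers had mean levels of 7.02 to 7.47 and of 5.75, 6.33 and 6.79 on the same scale. The difference of luminal carriers minus markers was -1.17, -1.36 and -1.45 in standard 1 to 3 and -0.69, -0.88 and -1.15 in adenine 1 to 3. The luminal mean includes Slc36a2 and Slc6a20a, with log2 changes of 0.99 and 0.22. The median log2 changes, which these move less, were -0.82 for the 9 carriers and -0.90 for the 10 markers; whether the carriers and markers differ was not tested.

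Members that work in pairs or lie side by side were compared as ratios of FPKM within a library, over 6 pairs of a heavy and a light chain. With 3 against 3 libraries the exact two-sided permutation test cannot go below 0.10, which is 0.12 after Benjamini-Hochberg adjustment over the 6. A further 4 pairs (Slc6a19 with Slc6a18, Slc6a20b with Slc6a20a, Slc7a12 with Slc7a13, and Slc7a8 with Slc7a7) were picked after the values of their members were seen, so their ratios are a description with no test. Slc3a1 over Slc7a9 was 6.48, 6.18 and 5.83 in standard 1 to 3 and 3.58, 4.23 and 5.08 in adenine 1 to 3. The heavy chain was thus lower relative to this light chain in every adenine library (exact p = 0.10). Slc3a1 over Slc7a13 was 0.266 to 0.286 on the standard diet and 0.199 to 0.380 on the adenine-enriched diet, with the standard values inside the adenine range (exact p = 0.90). Slc6a19 over Slc6a18, whose genes are 1721 bp apart, was 0.166, 0.188 and 0.196 against 0.111, 0.0843 and 0.0967, a gap that the choice of the pair fixes in part.

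Slc6a20b and Slc6a20a are 3556 bp apart on chromosome 9 and are both listed among the luminal carriers. Slc6a20b over Slc6a20a was 8.09, 10.9 and 11.0 in the standard and 3.03, 5.09 and 6.33 in the adenine libraries; here too the pair was chosen for the difference. Of 6208 windows of 100 bases in the longest Slc6a20b transcript of GENCODE M21, 392 (6.31%) also occur in Slc6a20a, so some reads fit both genes and the split between them is uncertain. Their promoter windows are shown because 1 gene of the pair fell and the other was not called; capitals mark GTTAAT, 1 arm of the binding site of the tubular factor HNF1, present in 6.43% of the 32851 windows (2113) on either strand. The windows are chr9:123678833-123679082 for Slc6a20a and chr9:123632539-123632788 for Slc6a20b (RefSeq, GRCm38.p6, minus strand, 250 bases before the start). Slc6a20a holds 1 match and Slc6a20b none, which says only that these letters are absent from that window.
Slc6a20a: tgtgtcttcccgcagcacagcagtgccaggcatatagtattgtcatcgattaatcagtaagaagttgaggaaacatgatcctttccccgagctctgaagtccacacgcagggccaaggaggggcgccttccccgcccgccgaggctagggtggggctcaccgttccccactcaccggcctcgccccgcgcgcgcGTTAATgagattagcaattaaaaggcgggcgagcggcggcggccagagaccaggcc
Slc6a20b: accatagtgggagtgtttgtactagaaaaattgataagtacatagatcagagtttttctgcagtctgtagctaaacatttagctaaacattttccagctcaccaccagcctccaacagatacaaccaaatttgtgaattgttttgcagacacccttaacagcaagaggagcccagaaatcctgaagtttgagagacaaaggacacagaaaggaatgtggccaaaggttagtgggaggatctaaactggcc

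**Figure D3:**
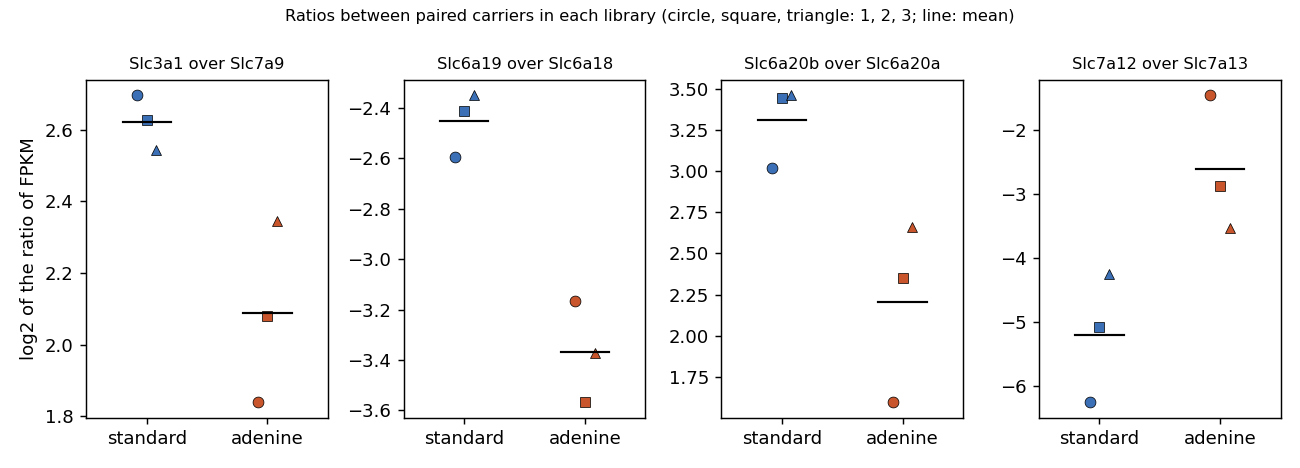
Log2 of the ratio of FPKM between 2 carriers in each library (vertical axes differ between panels); blue is standard, orange adenine, shapes are library numbers and lines are means. In all 4 pairs shown the 3 adenine values lie apart from the 3 standard values; only Slc3a1 over Slc7a9 was tested (exact p = 0.10), and the other 3 pairs were picked for their difference.

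Of 6 basolateral carriers, Slc7a6 and Slc38a3 rose and none fell, and after median-of-ratios scaling 1 rose. These counts are close to the shares of all genes called higher, 29.7% as deposited and 16.8% after scaling. Slc7a6, the light chain y+LAT2 that exchanges arginine for glutamine, was at 3.41, 4.3 and 2.94 FPKM across standard 1 to 3, against 8.51, 8.56 and 5.75 FPKM in adenine 1 to 3, without overlap (2.14-fold, limma adjusted p = 0.0153). Its call ended with quantile normalization (0.0569), without standard 1 and 3 (0.0547 and 0.0531) and without adenine 2 (0.0641). Slc38a3, the glutamine carrier SNAT3 that supplies ammonia formation, rose from 25.3, 25.1 and 27.1 to 29.7, 35.3 and 35.6 FPKM (1.30-fold, limma adjusted p = 0.0318). Its log2 change of 0.36 became 0.07 with median-of-ratios scaling, and the call ended (limma adjusted p = 0.712). It also ended with quantile normalization (0.297), with the block and scaling together (0.627), and on omission of standard 1, 2 or 3 (0.0882, 0.0937 or 0.0642) or of adenine 2 or 3 (0.115 or 0.053).

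Slc3a2 encodes 4F2hc, the heavy chain of most Slc7 exchangers, and was at 37.4, 46.9 and 53.9 against 65.4, 57.6 and 50.8 FPKM, with overlapping groups (limma adjusted p = 0.136). Its light chains Slc7a7 (y+LAT1) and Slc7a8 (LAT2) were at 21.6 to 45.8 against 22.3 to 25.1 FPKM and at 17.2 to 28.8 against 20.4 to 25.5 FPKM (limma adjusted p = 0.278 and 0.85). Relative to its light chains Slc3a2 was higher in the adenine libraries over Slc7a7 (1.18 to 1.73 against 2.05 to 2.93) and over Slc7a8 (1.87 to 2.17 against 2.49 to 2.73). Over Slc7a6 it was lower, at 10.9 to 18.3 against 6.73 to 8.83. None of these 3 ratios overlapped between the groups (exact permutation p = 0.10 each). Over Slc7a11 it was also lower, at 1047 to 2384 against 76.4 to 140 (exact permutation p = 0.10). That ratio rests on standard values of Slc7a11 near the detection limit. Slc43a2, the branched-chain and aromatic amino acid carrier LAT4, was at 30.6 to 37.8 and 33.6 to 40.3 FPKM (limma adjusted p = 0.683; its log2 change of 0.06 was negative under 5 settings).

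Of 13 carriers that supply growing or stressed cells, 8 reached 0.5 FPKM. Among these 8, 5 rose and none fell, and 3 rose after median-of-ratios scaling. The shares of all genes called higher were 29.7% as deposited and 16.8% after scaling. For the 8 carriers the median log2 change was 0.82 (0.53 after scaling). Of these 8, 6 were highest in adenine 1, against 7534 of all 15431 genes tested. Adenine 1 also had the highest macrophage marker sum (1702 FPKM, against 906.5 and 738.1 in adenine 2 and 3) and fibroblast marker sum (1109, against 920.6 and 583.4). The part of these cells in the result was not tested. Slc7a2, the cationic amino acid carrier CAT2 that supplies arginine and is made by activated macrophages among other cells, had the largest called change of the 43 carriers. Slc7a2 (ENSMUSG00000031596, chromosome 8, 40862396 to 40922308) was at 1.2, 1.44 and 1.13 FPKM on the standard diet (standard 1 to 3) and 15, 11.7 and 6.41 FPKM in adenine 1 to 3. Its lowest adenine library was well above its highest standard library, and the difference of means was 8.82-fold (log2 change 2.35 ± 0.28 SE, limma adjusted p = 0.00475). Slc1a5, the glutamine and small neutral amino acid exchanger ASCT2 (chromosome 7, 16781346 to 16798274), rose from 26.1, 23.9 and 22.3 to 56.1, 45.3 and 39.1 FPKM. It rose 1.94-fold without overlap (log2 change 0.92 ± 0.14 SE, limma adjusted p = 0.00762).

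Slc38a1 and Slc38a2 encode the sodium-coupled glutamine and alanine carriers SNAT1 and SNAT2, and lie 44480 bp apart on chromosome 15. Slc38a1 rose from 1.54, 1.61 and 1.39 to 5.95, 4.32 and 2.91 FPKM, a 2.90-fold difference (limma adjusted p = 0.0151). Slc38a2 rose from 56.7, 39.4 and 60.5 to 83.9, 77.3 and 97.0 FPKM, a 1.65-fold difference (limma adjusted p = 0.0233). Neither overlapped between the groups, and adenine 1 was highest for Slc38a1 but adenine 3 for Slc38a2. The liver-type carrier Slc38a4 was low and rose from between 1.07 and 1.18 to between 1.69 and 2.14 FPKM (limma adjusted p = 0.0359). Median-of-ratios scaling ended the calls of Slc38a2 (0.164, and 0.0599 with the block) and Slc38a4 (0.108), and Slc38a4 was also lost with the block (0.0601), with both together (0.16) and with quantile normalization (0.869, log2 change -0.03). Calls ended without standard 1 for all 3 genes (0.0519, 0.0545 and 0.0875) and without adenine 2 (0.0588, 0.0584 and 0.103). Slc38a1 was also lost without standard 3 (0.0534), Slc38a2 without adenine 1 (0.0559), and Slc38a4 without standard 2, standard 3 and adenine 1 (0.0924, 0.0755 and 0.067).

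Slc7a12, a carrier of small neutral amino acids whose kidney transcript is known to be more abundant in female mice, was at 13.2, 29.8 and 60.4 FPKM for standard 1, 2 and 3, against 95.5, 64.6 and 70.3 FPKM in adenine 1 to 3. All adenine libraries were above all standard libraries, but the 2.23-fold difference did not pass (limma adjusted p = 0.0725, 0.0331 without standard 3). Its ratio to Slc7a13 was 0.0131, 0.0297 and 0.0524 on the standard diet and 0.365, 0.137 and 0.0869 on the adenine-enriched diet, a pair picked after its values were seen; the 2 transcripts share no window of 50 bases. Slc7a1, the widespread cationic amino acid carrier CAT1, was at 2.88 to 5.69 and 5.49 to 10.7 FPKM with overlap (limma adjusted p = 0.112, called with the block and without adenine 3). Slc1a4, the alanine and serine exchanger ASCT1, was at 11.9 to 15.5 and 8.77 to 15.6 FPKM (limma adjusted p = 0.768).

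**Figure D4:**
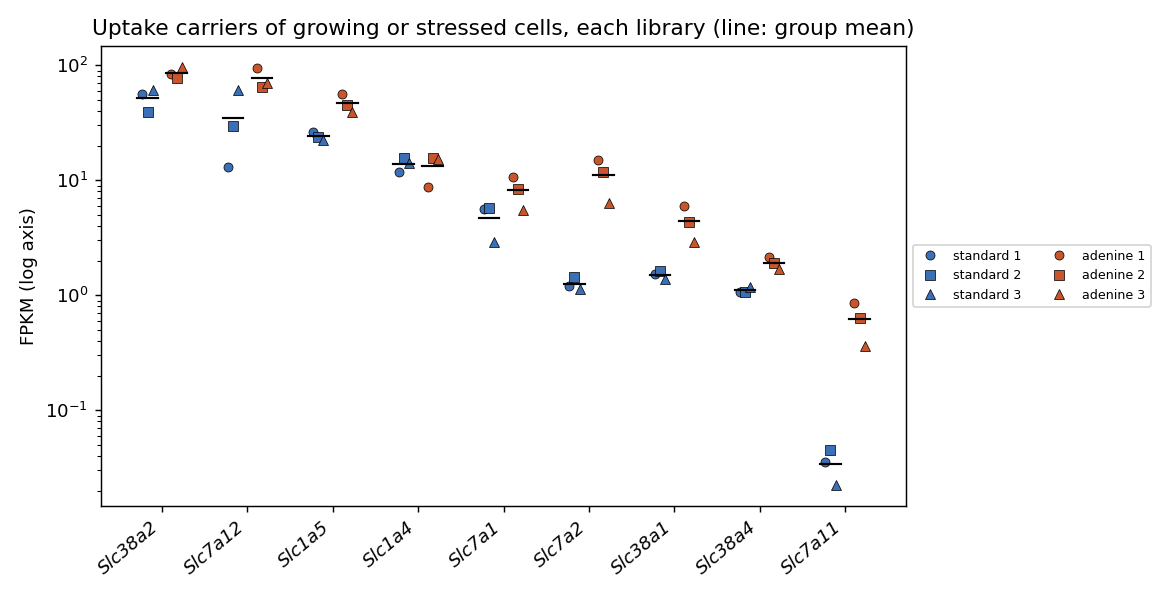
FPKM on a log axis of the 8 described uptake carriers and of Slc7a11, which is below the level threshold, in each library; blue is standard, orange adenine, shapes mark library numbers and lines group means. Slc7a2 and Slc7a11 show the widest gap between the groups, and only Slc1a4 and Slc7a1 overlap.

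Just above the threshold of 0.5 FPKM were Slc38a11 (mean 0.934 FPKM) and Slc36a2 (1.44), and just below it Slc7a15 (0.417), Slc7a3 (0.404) and Slc7a11 (0.327). Slc7a11, picked after its values were seen, encodes xCT, the cystine and glutamate exchanger that feeds glutathione synthesis. It was at 0.0357, 0.0448 and 0.0226 FPKM across standard 1 to 3, against 0.856, 0.637 and 0.363 FPKM in adenine 1 to 3. The standard values are near the detection limit and no fold is given; with no filter on low values, an alternative setting, the gene was called (log2 change 0.63, limma adjusted p = 0.0188). Its promoter is shown because it holds 2 copies, 1 on each strand, of TGATGNAA, the core of the amino acid response element bound by ATF4. The window is chr3:50443614-50443863 (RefSeq, GRCm38.p6, minus strand, 250 bases before the start), with the copies in capitals 59 and 40 bases from the start. On either strand the core is in 1134 of 32851 windows (3.45%) and, among carriers with a window, only in Slc7a11 and Slc7a7.
Slc7a11: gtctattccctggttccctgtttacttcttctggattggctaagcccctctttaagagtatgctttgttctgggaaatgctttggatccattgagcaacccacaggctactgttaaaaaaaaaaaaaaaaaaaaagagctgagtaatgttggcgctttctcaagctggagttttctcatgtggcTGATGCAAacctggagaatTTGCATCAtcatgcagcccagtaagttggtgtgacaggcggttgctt
The 18 carriers under 0.5 FPKM include most of the neurotransmitter carriers, and Slc6a11, a brain GABA carrier, was listed at 0 in all libraries.

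Of 7 lysosomal or intracellular carriers 4 rose and none fell, but after median-of-ratios scaling none rose and 1 fell. Among all genes tested 29.7% were called higher and 6.84% lower, and after that scaling 16.8% and 15.2%. Slc38a10, Slc38a6 and Slc38a7 are Slc38 members with less known roles, Slc38a7 being a lysosomal glutamine carrier. Slc38a10 was at 70.8 to 75.2 and 89.1 to 104 FPKM, Slc38a6 at 65.9 to 69.1 and 78.2 to 79.4 FPKM, and Slc38a7 at 6.99 to 7.88 and 9.65 to 11.6 FPKM (limma adjusted p = 0.025, 0.0462 and 0.0223). Slc36a4, a tryptophan and proline carrier, was at 4.29 to 6.17 and 6.99 to 10.8 FPKM (limma adjusted p = 0.0489). None of the 4 overlapped between the groups, but 44.4% of all genes tested had every adenine library above every standard library. After median-of-ratios scaling the 4 log2 changes were 0.06, -0.07, 0.20 and 0.35, so the direction of Slc38a6 flipped (limma adjusted p = 0.588, 0.578, 0.118 and 0.126).

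Slc36a1, the lysosomal proton-coupled carrier PAT1 that exports small amino acids and takes part in mTORC1 sensing, went the other way. It was at 18.9, 23.9 and 21.9 FPKM in the standard and at 14.5, 17.9 and 18.5 FPKM in the adenine libraries, without overlap (limma adjusted p = 0.0932). It was called lower under quantile normalization (0.041), under median-of-ratios scaling (0.0295), with the block (0.0404) and with block and scaling together (0.0133). Slc38a9, the lysosomal arginine sensor of mTORC1, was at 2.29 to 2.55 and 2.97 to 3.10 FPKM (limma adjusted p = 0.181). Omitting 1 library ended the calls of Slc38a10 (standard 1, 2 or 3: 0.0656, 0.0676 or 0.0794, adenine 2: 0.062) and Slc38a6 (standard 1, 2 or 3: 0.112, 0.0931 or 0.11, adenine 1 or 2: 0.0754 or 0.14). The same was so for Slc38a7 (0.0622, 0.0592 or 0.0689, then 0.0638 or 0.0903) and Slc36a4 (0.0896, 0.0848 or 0.129, then 0.131 or 0.137). Other settings that ended these 4 calls were quantile normalization (Slc38a6 0.0756, Slc38a7 0.624, Slc36a4 0.303), no variance trend (Slc38a6 0.082, Slc36a4 0.0507), a mean of at least 5 FPKM (Slc38a6 0.0553, Slc36a4 0.051), no filter (Slc36a4 0.0785), and for Slc38a6 a pseudocount of 0.1 (0.0516), the robust prior (0.0698) and the block (0.0734). Block and scaling together ended those of Slc38a10 (0.577), Slc38a6 (0.525) and Slc38a7 (0.144).

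None of the 5 osmolyte, creatine, glycine and GABA carriers was called by limma, and 1 had an unadjusted p under 0.05. Of all genes tested 36.5% were called. Slc6a6, the taurine carrier, was at 73.3 to 86.6 and 84.7 to 88.4 FPKM, and Slc6a8, the creatine carrier, at 48.8 to 58.7 and 57.4 to 69.2 FPKM (limma adjusted p = 0.283 and 0.281). Slc6a9, a glycine carrier, was at 12.9 to 15.5 and 13.5 to 17.8 FPKM (limma adjusted p = 0.269), and it overlaps B4galt2 on the other strand by 5939 bp, a gene at 0.953 to 2.19 and 5.49 to 11.9 FPKM. The log2 changes of these 3 were 0.13, 0.17 and 0.20 and became -0.17, -0.13 and -0.08 after median-of-ratios scaling. Slc6a13, a GABA and taurine carrier of the proximal tubule, was at 69.2, 72.1 and 78.2 FPKM on the standard diet (standard 1 to 3) and 27.6, 43 and 66.2 FPKM in adenine 1 to 3. These groups did not overlap, but the difference of 1.60-fold missed the threshold (limma adjusted p = 0.0802, 0.0495 with the block, 0.0311 with block and scaling together, and 0.0104 without adenine 3). Its neighbour Slc6a12, the betaine carrier of the medulla, was at 7.36, 8.61 and 2.93 against 2.60, 3.16 and 3.58 FPKM, with standard 3 inside the adenine range (limma adjusted p = 0.128).

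Among 13 neurotransmitter carriers 5 reached 0.5 FPKM and none was called by limma, nor had any an unadjusted p under 0.05. The share of all genes tested that was called was 36.5%. Slc6a15, a neutral amino acid carrier best known from brain, was at 12.3 to 14.0 and 8.40 to 13.4 FPKM, and Slc6a17, Slc6a4 and Slc1a3 were at 1.23 to 8.70 FPKM in all libraries. Slc1a2, the glutamate carrier GLT-1 of astrocytes, was at 190 FPKM in standard 3 and at 0.835 to 1.42 FPKM in the other 5 libraries, a 134-fold gap. Its difference was not called (limma adjusted p = 0.373), and without standard 3 the log2 change of -2.05 became 0.18. The neuron and glia marker Snap25 was at 0 in every library, and in standard 3 Gfap was at 0.11 and Syt1 at 0.0971 FPKM, so these markers were not raised there. Values at least 20 times those of every other library, at 20 FPKM or more in genes spanning over 2000 bp, occurred in 2 genes in standard 3 and in 0 to 3 in the other libraries; the cause was not tested.

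Of 8 remaining carriers 3 reached 0.5 FPKM, and 2 of these rose, none after median-of-ratios scaling. All 3 were higher in every adenine library than in every standard library, as were 44.4% of all genes tested; 29.7% of all genes tested were called higher. Slc43a3 is known as a carrier of purine nucleobases, adenine among them, despite its place in an amino acid carrier family. It was at 24.1, 28.6 and 31.5 FPKM for standard 1, 2 and 3, against 53.8, 37.9 and 34.6 FPKM in adenine 1 to 3, a 1.5-fold difference that was not called (limma adjusted p = 0.0561, 0.0335 without adenine 3). Slc43a1, the large neutral amino acid carrier LAT3, rose from between 1.09 and 1.27 to between 1.91 and 3 FPKM (limma adjusted p = 0.0314). Slc7a4, an Slc7 member with no settled substrate, rose from between 1.57 and 2.61 to between 3.02 and 4.74 FPKM (limma adjusted p = 0.0315). Both calls ended under median-of-ratios scaling (0.0684 and 0.0561) and under quantile normalization (0.607 and 0.288), that of Slc43a1 with block and scaling together (0.0825), and that of Slc7a4 with no filter (0.058). Omitting a library ended that of Slc43a1 (standard 1, 2 or 3 omitted: 0.0819, 0.0892 or 0.072, adenine 2 omitted: 0.0602) and that of Slc7a4 (standard 1 or 3 omitted: 0.0929 or 0.0951, adenine 1 or 2 omitted: 0.0825 or 0.103). The opposite-strand gene Slc7a6os, which encodes no carrier, was at 6.72 to 8.50 and 9.33 to 10.8 FPKM (limma adjusted p = 0.0594).

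Partners and other carriers of amino acids and peptides moved in both directions, 3 up and 4 down of 19 tested (3 and 5 when scaled by median of ratios). Among all genes tested 29.7% rose and 6.84% fell (16.8% and 15.2% when so scaled). The median log2 change of the 19 was 0.02, and -0.28 when so scaled. Tmem27, which encodes collectrin, the partner that brings B0AT1 and related Slc6 carriers to the luminal membrane of the kidney, fell from 982, 943 and 1177 to 304, 434 and 584 FPKM (limma adjusted p = 0.0141). The groups did not overlap. Slc25a13, the mitochondrial aspartate and glutamate carrier, fell from between 40.8 and 45.3 to between 27.5 and 33.3 FPKM (limma adjusted p = 0.012). Tmem27 was picked for its known partnership after its values were seen. Mfsd12, a cysteine carrier of lysosomes and melanosomes, rose from between 1.70 and 2.43 to between 4.83 and 7.54 FPKM, and the lysosomal histidine and peptide carrier Slc15a4 rose from between 8.23 and 9.99 to between 14.1 and 15.5 FPKM (limma adjusted p = 0.00735 and 0.00762).

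Of 20 listed genes of the amino acid starvation response, which ATF4 drives, 10 rose and none fell (7 and 1 when scaled by median of ratios). Slc7a11 also belongs to that response but is not among the 20. Among all genes tested 29.7% rose and 6.84% fell (16.8% and 15.2% when so scaled). The median log2 change of the 20 genes was 0.67, and 0.42 when so scaled. Atf3 rose from 0.68, 1.12 and 1.81 to 9.31, 7.80 and 7.40 FPKM, and Sesn2, a leucine sensor of mTORC1, rose from between 13.8 and 15.6 to between 23.2 and 23.7 FPKM (limma adjusted p = 0.00395 and 0.00537). Atf4 itself was at 54.2, 52.7 and 71.5 against 73.0, 66.6 and 70.9 FPKM (limma adjusted p = 0.175), and Chac1 at 0.625 to 1.2 and 0.730 to 1.30 FPKM (adjusted p = 0.924). Atf4 and Chac1 were picked after their values were seen, and protein was not measured.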

How the data were processed

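Whole-kidney RNA from 3 mouse samples on each diet was sequenced, and the authors deposited FPKM per gene, per the file headers. The submitters' processing notes name bcl2fastq 2.0, TopHat, Cufflinks 2.1.1 and the mm10 (GRCm38) build; strand use in counting is not given in the sources used here. A second table, of young and old mice (6 value columns), was not used.

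Genes averaging 0.5 FPKM or more were tested on log2(FPKM + 1) with limma 3.58.1 in R 4.3.3 (two-sided, trended moderated variance, Benjamini-Hochberg over 15431 genes, threshold 0.05). Fold changes on this scale understate low genes; n-fold values are ratios of mean FPKM. FPKM steps were whole fragments within 0.15 for only 65.4 to 73.4% of the lowest values, so counts were not recovered and depth is approximate. Ratios of pairs were compared by exact permutation; 1 planned pair is not analysed here. On simulated data (14636 genes, adenine against standard), limma found 64 of the 100 genes set to a 2-fold change, 87 of the 100 set to a 4-fold change and 11 unchanged genes. The changed genes were drawn only from those with a standard mean log2(FPKM + 1) over 2. Noise was independent between genes and libraries, with no shift of all genes, so these rates may not hold for lower carriers or for the real data. Same-numbered libraries deviated together (correlations of 0.257, 0.143 and 0.181, against -0.187 to 0.0376 for other numbers), so the numbers were taken to pair the samples. The labels are silent on this, and the pairing is read from the same 6 libraries that the block is applied to. The p-values with the block are therefore not those of a designed pairing, and what the numbers share was not tested. Alternatives were the pseudocount (0.1, 0.5), no filter or a mean of at least 5 FPKM, median-of-ratios scaling, quantile normalization, no variance trend, a robust prior, the replicate block and leaving out each library. Named genes are called members, members with a mean of at least 10 FPKM and, of each context list, up to 2 rises and 2 falls with the smallest p; some named by this rule are not reported here, and others were picked after their values were seen. The members and lists were chosen with earlier results of these data known. Sequences and motif counts are from RefSeq promoter windows (GRCm38.p6).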

Additional observations from a re-analysis of the deposited data

How the results depend on the processing

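Of 34 named members 25 kept their direction in all 16 alternative settings, and of 18 called members 4 kept their call in all. Of 43 carriers tested 13 rose, against 29.7% of all genes tested. That number became 7 of 33 carriers with a mean of at least 5 FPKM (fewer genes tested, of which 30.2% rose). It became 4 with median-of-ratios scaling (16.8% of all genes) and 5 with quantile normalization (13.9%). With the replicate block and scaling together it became 8 (17.3%). The number that fell, 5 (6.84% of all genes), became 3 with no filter on low values (3.65%) and 8 with quantile normalization (14.5%). It became 8 with the replicate block (7.34%) and 10 with block and scaling together (16.8%), and the cause was not tested. Leaving out 1 library gave 2 to 15 rises, 2 to 8 falls and 2053 to 7078 called genes in all, against 5637 with all libraries. The highest of each came without adenine 3, and the lowest total without adenine 2. Of all calls 81.3% were higher as deposited and 52.6% with median-of-ratios scaling. The replicate block as a pairing added Slc7a13, Slc36a1 and Slc6a13 as lower and Slc36a2 and Slc7a1 as higher, ended the calls of Slc38a6 and Slc38a4, and changed no other carrier's call.

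Directions turned for 9 of the 34, of which only Slc38a6 and Slc38a4 were called. With median-of-ratios scaling, with or without the block, the log2 change was -0.17 for Slc6a6, -0.069 for Slc38a6, -0.13 for Slc6a8, -0.23 for Slc43a2 and -0.081 for Slc6a9. With quantile normalization it was -0.079 for Slc43a2, -0.12 for Slc6a9 and -0.029 for Slc38a4. Without standard 3 it was -0.014 for Slc43a2, 0.18 for Slc1a2 and 0.11 for Slc7a8. Without adenine 1 it was -0.023 for Slc43a2 and 0.16 for Slc1a4, and without adenine 3 it was 0.01 for Slc7a8. Over the fits that leave out 1 library, the range ran from -0.023 to 0.13 for Slc43a2, -3.17 to 0.18 for Slc1a2, -0.25 to 0.11 for Slc7a8 and -0.22 to 0.16 for Slc1a4. Depth limits the carriers under about 0.1 FPKM, where a value rests on a few fragments.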

Other observations

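Of 17 listed enzymes of amino acid use and ammonia formation in the kidney, 4 fell, 1 rose and 12 were not called (limma), where 6.84% of all genes fell and 29.7% rose. With median-of-ratios scaling 7 fell and 1 rose, against 15.2% and 16.8% of all genes. The median log2 change was -0.33, and -0.61 when so scaled. Gatm, the first enzyme of creatine synthesis, fell from 127, 199 and 276 to 74.1, 79.5 and 87.1 FPKM (limma adjusted p = 0.0163). Arg2, the mitochondrial arginase, rose from 5.40, 5.33 and 5.47 to 32.4, 35.6 and 38.2 FPKM, with a narrow spread in both groups (log2 change 2.50 ± 0.09 SE, limma adjusted p = 0.000492).

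Of 13 genes of glutathione and cystine handling 3 rose and 1 fell, and with median-of-ratios scaling none rose and 3 fell. Among all genes tested 29.7% rose and 6.84% fell, and with that scaling 16.8% and 15.2%. The median log2 change of the 13 genes was -0.30, and -0.60 when so scaled. Nfe2l2, the factor NRF2 of the oxidative stress response, rose from 57.5, 59.5 and 64.8 to 88.4, 81.2 and 75.8 FPKM, and Gsr, glutathione reductase, from 61.4, 58.2 and 57.8 to 72.0, 93.1 and 97.4 FPKM (limma adjusted p = 0.0174 and 0.0202). With that scaling neither was called (0.35 and 0.274). Cth, the last enzyme of cysteine synthesis, fell from 146, 145 and 175 to 75.5, 91.5 and 133 FPKM (limma adjusted p = 0.0488).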
